A study of Malus domestica with 99 samples.

Results

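Golden Delicious apples treated with 1-MCP were compared with control apples of the same cultivar 2 months after harvest, transcript by transcript. A transcript entry was taken as a member of the comparison when its level was at least 4 on the log2 scale in either the 1-MCP or the control fruit at 2 months. This gave 32691 members of 55627 entries. Of the members, 28343 reached that level in both groups and 4348 in 1 of them alone, 2182 in control and 2166 in 1-MCP fruit. The 100 members just inside the threshold had a median absolute difference between treated and control fruit of 0.666 (log2), and the 100 entries just outside it had 0.709.

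All fruit were of Malus domestica, and RNA came from the fruit cortex, the flesh under the skin. Treated fruit received 1-methylcyclopropene (1-MCP) overnight in a closed container after harvest, and control fruit were not described as treated. Golden Delicious has 11 groups, which are harvest fruit and then control and 1-MCP fruit at days 1, 7, 14 and 21 and at 2 months, with 3 biological replicates labelled for each. The same groups of Granny Smith and Fuji were used where stated. The labels used here give no orchard, tree or storage temperature.

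Ethylene drives ripening in apple, a climacteric fruit. It is made from ACC by ACC synthase and ACC oxidase, it is sensed by receptors of the ETR and ERS families that hold the pathway off when no ethylene is bound, and it acts through EIN3-like and ERF transcription factors. 1-MCP occupies these receptors in place of ethylene and is used to slow softening and aroma formation in stored fruit. Auxin enters and leaves cells through AUX/LAX and PIN carriers, and Aux/IAA proteins restrain the auxin response factors (ARF).

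Each deposited value is the mean of a group on the log2 scale, and the values below are such levels or the 1-MCP minus control difference between them. No spread between replicate fruit can be given, sequencing depth is unknown, and a library that stands apart within a group cannot be seen. A difference at 2 months was therefore described by its size, with 2-fold (log2 of 1) as the mark, and was also weighed in limma against the spread of the treatment difference over days 7, 14 and 21. The fit uses limma's trend and robust options, and where a call at 2 months is lost with neither of them this is given. Calls of the change from days 7 to 21 to 2 months fell from 5408 to 822 with neither option. For single genes the calls of the change are not given under that setting. The fit assumes that the lone 2-month difference varies as the days do. Standard errors (SE) and adjusted p-values below come from limma with Benjamini-Hochberg adjustment over 40070 entries. The labels do not say how fruit were divided between treatments and days, and any other way in which treated fruit departed from control fruit cannot be told apart from 1-MCP itself. In such tissue samples, fewer cells of a type cannot be told apart from less RNA per cell.

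Treated and control fruit differed at 2 months in more transcripts, past 2-fold, than at any earlier sampling. Of the members, 3585 (11.0%) were at least 2-fold higher in 1-MCP fruit and 3836 (11.7%) at least 2-fold lower, 22.7% in all. At day 1 the same members gave 676 higher and 785 lower, at day 7 they gave 3041 and 2955, at day 14 3143 and 2832, and at day 21 2626 and 2102. The members were chosen by their 2-month level, which bears on this order. Differences of at least 4-fold numbered 1773 towards lower and 1060 towards higher levels in treated fruit. By limma, 10543 of 40070 entries (26.3%) passed at 2 months, 6074 higher (15.2%) and 4469 lower (11.2%). The median difference of all tested entries at 2 months was 0.13 (log2), and when that shift was removed the split became 4487 higher and 5332 lower. Among the 32691 members alone, 9848 passed, 5527 higher and 4321 lower, which are larger shares than over all tested entries. The shares of tested entries given beside lists of members below are thus a low background. The number of entries that passed at 2 months was 3621 without day 14 and 4989 with no filter on low values. With no filter the 2-month calls of 45 of 57 named genes were lost, and those of PIN7, MdACS-5B, CAMTA3, NAC3, CKS1, hexokinase, HD11, HD14, Col1, GBSSIa, GBSSIb and AMY10 were not.

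The differences at 2 months were then set beside those of days 7 to 21. An early effect was counted when the mean of days 7, 14 and 21 was at least 2-fold and passed limma, and 4870 members had one, 2623 higher and 2247 lower in treated fruit. Over all tested entries 17967 (44.8%) passed at days 7 to 21 before the fold was asked for, 23.9% as higher and 20.9% as lower. Of the 4870, 2715 members still differed by at least 2-fold in the same direction at 2 months (55.7%, and 8.31% of all members), 1341 of them higher and 1374 lower. A further 947 (19.4%, and 2.90% of members) had caught up, meaning that the difference at 2 months was under 0.5, and 925 lay in between. In 283 the effect had turned round and was at least 2-fold in the opposite direction (0.866% of members). Another 2058 members (6.30%) differed late, with under 0.5 at days 7 to 21 and at least 2-fold at 2 months, 983 higher and 1075 lower. These classes are defined by the differences themselves and are given as a description. Of those that still differed, 659 of the 1341 higher and 647 of the 1374 lower reached the level threshold in 1 group alone. Among those that had caught up, this held for 19 of 520 that had been higher and 17 of 427 that had been lower. The split between these classes is thus partly fixed by the level threshold at 2 months. The change from days 7 to 21 to 2 months was also tested, and it passed in 5408 of 40070 entries (13.5%), upward in 7.01% and downward in 6.48%. It passed in 285 of the 520 members that had been higher and caught up and in 218 of the 427 that had been lower. Among late members it passed in 511 of 983 higher and 577 of 1075 lower. The rest of these classes are placed by size alone. Of those that still differed, 1128 of the higher and 1083 of the lower passed limma at 2 months. The classes were chosen on the same differences that were tested. That choice raises these counts of passes, so they are a description and no separate support for the classes. Without day 14, limma passed 0 changes (8378 at an unadjusted p under 0.05), so each change called below depends on that day.

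**Figure D1:**
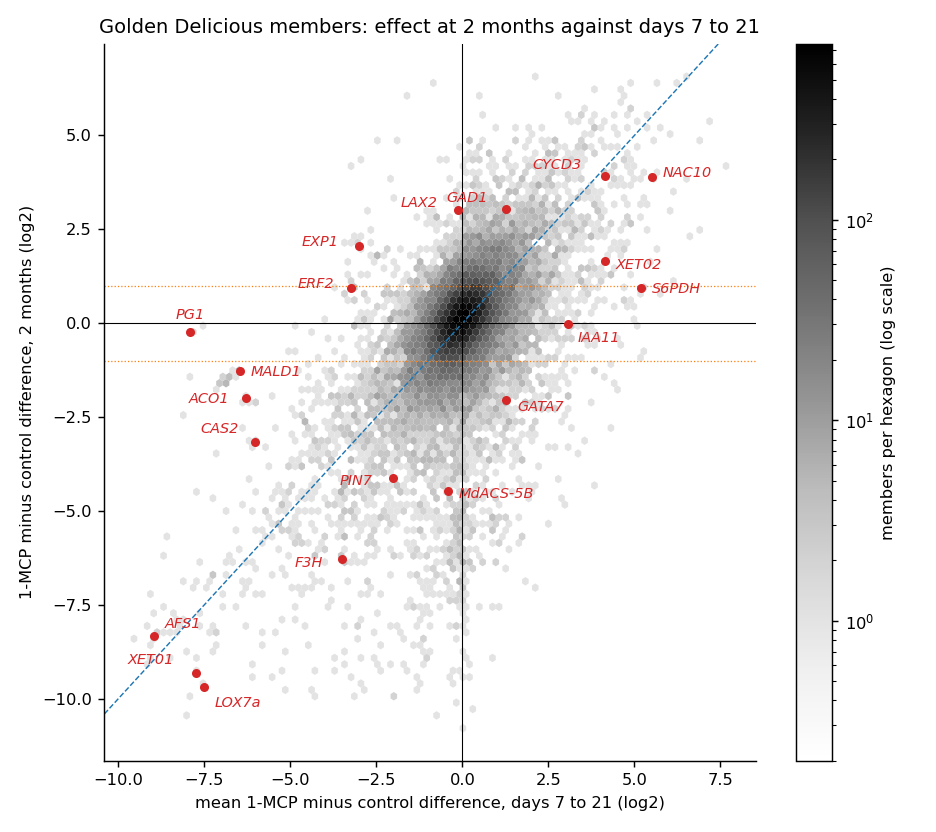
Each hexagon counts members by the mean 1-MCP minus control difference over days 7 to 21 (x, log2) and the difference at 2 months (y, log2), with shading on a log scale. The dashed line marks equal differences, the dotted lines mark 2-fold, and named genes in red run from AFS1, far down on the dashed line, to PG1 near 0 at 2 months and EXP1 above 0.

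Levels shifted by more in control than in treated fruit between day 21 and 2 months. Over all members the median absolute change between those samplings was 0.482 in control and 0.353 in treated fruit, and 7816 members (23.9%) changed by at least 2-fold in control fruit against 4275 (13.1%) in treated fruit. Over all entries, 9996 stood at the floor of the scale in control fruit at day 21 and 7156 at 2 months. In treated fruit these counts were 9080 and 7485. More entries thus left the floor in control fruit, and how far this bears on the shifts was not tested. The class medians that follow are a description, since the classes were chosen by the 2-month difference, and many members of the turned and late classes entered through 1 column alone. These were 95 of the 212 that turned from higher to lower, 495 of the 1075 late and lower, and 370 of the 983 late and higher, so a shift in the group that is high at 2 months is partly fixed by the choice. Members that had been higher under 1-MCP and caught up had a median change of 1.09 in control fruit and -0.30 in treated fruit. Members that had been lower and caught up had a median change of -0.74 in control fruit and 0.39 in treated fruit. The 212 members that turned from higher to lower had a median change of 3.95 in control fruit and -0.26 in treated fruit. Those that differed late and lower had a median change of 1.85 in control and -0.03 in treated fruit. For those that differed late and higher the medians were -1.16 in control and 0.24 in treated fruit.

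**Figure D2:**
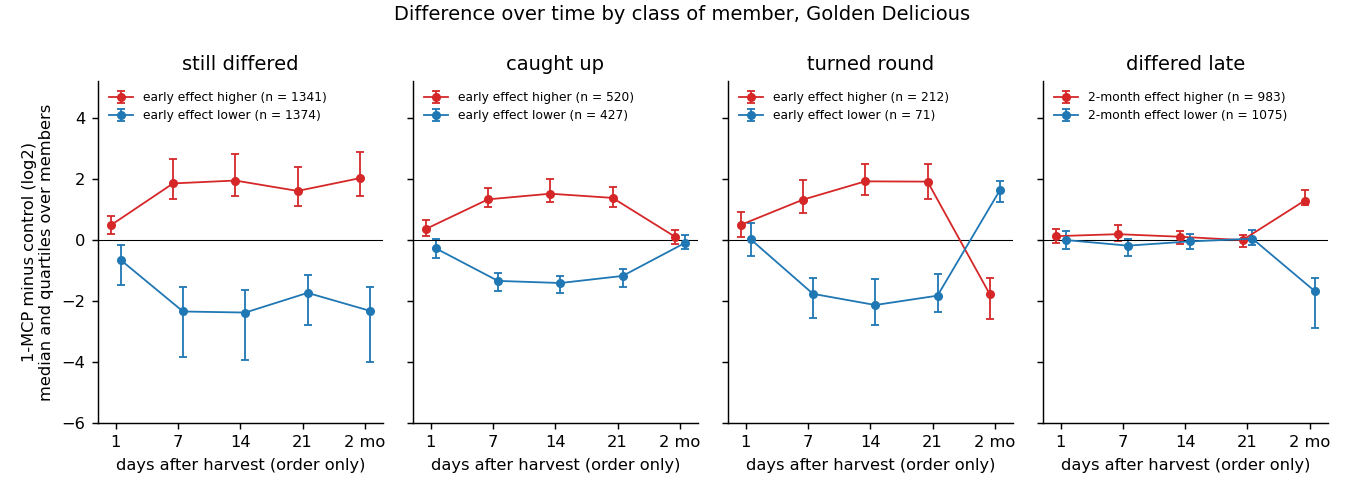
Points are the median 1-MCP minus control difference (log2) over the members of each class and bars are the quartiles, at day 1, 7, 14 and 21 and at 2 months (order only). At 2 months the caught-up medians are 0.10 and -0.11, those of the late classes 1.28 and -1.68, and those of the members that still differed 2.02 and -2.33.

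Gene names were found for 235 genes among the members, 43 of them at least 2-fold higher and 40 at least 2-fold lower in treated fruit, which is 18.3% and 17.0% against 11.0% and 11.7% over all members. The median difference was 0.13 against 0.10. Of these genes, 35 still differed (14.9%, against 8.31% of all members), 7 had caught up (2.98% against 2.90%), 15 lay in between, 3 had turned round (1.28% against 0.866%) and 21 differed late (8.94% against 6.30%). They are taken up below by role. Several reached the level threshold in the control fruit alone, among them AFS1, LOX7a, XET01, F3H, PIN7, ERS1 and ETR5. Others, such as LAX2, CYCD3, MdSOT3 and NAC10, reached it in the treated fruit alone. Counts by role that include such genes thus rest partly on that threshold.

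Ethylene synthesis genes were lower in treated fruit at 2 months, though for ACO1 within the spread between days. ACO1, the ACC oxidase that makes ethylene from ACC, was at 13.17 at harvest and then 12.84, 15.30, 15.79, 15.65 and 16.12 in control fruit at days 1, 7, 14 and 21 and 2 months. In treated fruit it was 12.28, 11.07, 6.82, 10.04 and 14.13. The treated fruit were lowest at day 14 and at 2 months lay above harvest but below control. The difference was -6.27 over days 7 to 21 (SE 1.07, limma adjusted p = 0.0199) and -1.98 at 2 months (SE 1.86, adjusted p = 0.492). MdACS-5B, an ACC synthase, was at 1.53 in control and 1.33 in treated fruit at day 21, and at 5.32 and 0.86 at 2 months. Its difference appeared late, at -4.46 (SE 0.74, limma adjusted p = 0.0111), and was -2.92 with 4 added to the linear values. The treated level of 0.86 lies low on the scale, and MdACS-5B is a member through the control fruit alone. Both ethylene synthesis genes among the members were thus more than 2-fold lower, and 1 of the 2 passed. Among all members 11.7% were at least 2-fold lower, and 11.2% of tested entries passed as lower.

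Of 5 receptor genes, 3 were lower at 2 months by 8-fold or more, and they had been lower since day 7. Over all members 11.7% were at least 2-fold lower, and over all tested entries 11.2% passed as lower. ETR2 was at 10.57 at harvest, and at 10.13 in control and 6.60 in treated fruit at 2 months, a difference of -3.53 (SE 0.77, limma adjusted p = 0.0479). ERS1 was at 6.81 and 3.71, and its difference of -3.10 (SE 0.31) was close to the -3.05 of days 7 to 21. ETR5 was at 5.94 and 2.91, a difference of -3.02 (SE 0.30). Both ERS1 and ETR5 are members through the control fruit alone, so the receptor count rests partly on the level threshold. The change from days 7 to 21 did not pass in any of the 3 (limma adjusted p = 0.448 for ETR2, 0.943 for ERS1 and 0.17 for ETR5). ETR1 and ETR1b differed by -0.25 and -0.50 and did not pass. The ETR2 call rests on single days, with limma adjusted p = 0.0795 without day 7 and 0.0610 without day 14, and 0.0627 with neither limma option.

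Downstream, the signalling genes CTR1, a kinase that represses the pathway, EIN2, which carries the signal onward, and EIL3, an EIN3-like factor, differed by 0.10 to 0.38 at 2 months and none passed. ERF2, an ethylene response factor, had a different course. It was at 7.65 in control and 4.82 in treated fruit at day 21, and at 4.95 and 5.90 at 2 months. Its difference went from -3.22 (SE 0.17) to 0.95 (SE 0.29, limma adjusted p = 0.0617), a change of 4.17 with adjusted p = 0.00412. ERF1 was lower by 0.51 at 2 months and passed, well under 2-fold.

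Genes of cell wall loosening and pectin breakdown fell into several classes. Of 8 members, 4 were at least 2-fold lower and 2 at least 2-fold higher in treated fruit, and 3 of the lower and 2 of the higher passed. The shares of all members past that fold were 11.7% lower and 11.0% higher, and 11.2% and 15.2% of tested entries passed. The median difference was -0.72 against 0.10 over all members. XET01, a xyloglucan endotransglycosylase, was at 9.47 at harvest and 10.76 in control but 1.44 in treated fruit at 2 months. That difference of -9.32 (SE 0.81, limma adjusted p = 0.00454) was larger than the -7.72 of days 7 to 21 by less than the spread between days. The treated level of 1.44 lies low on the scale, and with 4 added to the linear values the XET01 difference was -8.02. MAN2, another gene of the list, had a difference of -5.42 (SE 0.68), with control fruit at 2.64 at day 21 and 8.08 at 2 months. MAN3 was lower by 1.21 (limma adjusted p = 0.0292; 0.101 without day 14 and 0.0724 with neither limma option), and the beta-galactosidase record BGAL101 was at -2.08 and did not pass.

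PG1, the polygalacturonase that cuts pectin during softening, stood within 0.22 of control at 2 months. Control fruit held 10.99 at harvest, then 9.51, 12.88, 13.14, 12.91 and 9.96, and treated fruit 7.14, 5.18, 3.16, 6.87 and 9.74 from day 1 to 2 months. The groups came together from both sides, control being 2.94 lower and treated fruit 2.87 higher at 2 months than at day 21. The difference went from -7.90 (SE 0.87, limma adjusted p = 0.00716) to -0.22 (SE 1.51), and the change of 7.68 had adjusted p = 0.0804. EXP1, an expansin that loosens the wall, crossed over, with control fruit at 7.84 at day 21 and 4.71 at 2 months and treated fruit at 4.33 and 6.78. Its difference turned from -2.996 to 2.07 (SE 0.32, limma adjusted p = 0.00958), and the change passed with adjusted p = 0.0037. XET02 stayed higher in treated fruit, by 1.65 at 2 months (SE 0.18) after 4.14 at days 7 to 21, and that narrowing passed as well (adjusted p = 0.00412).

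**Figure D3:**
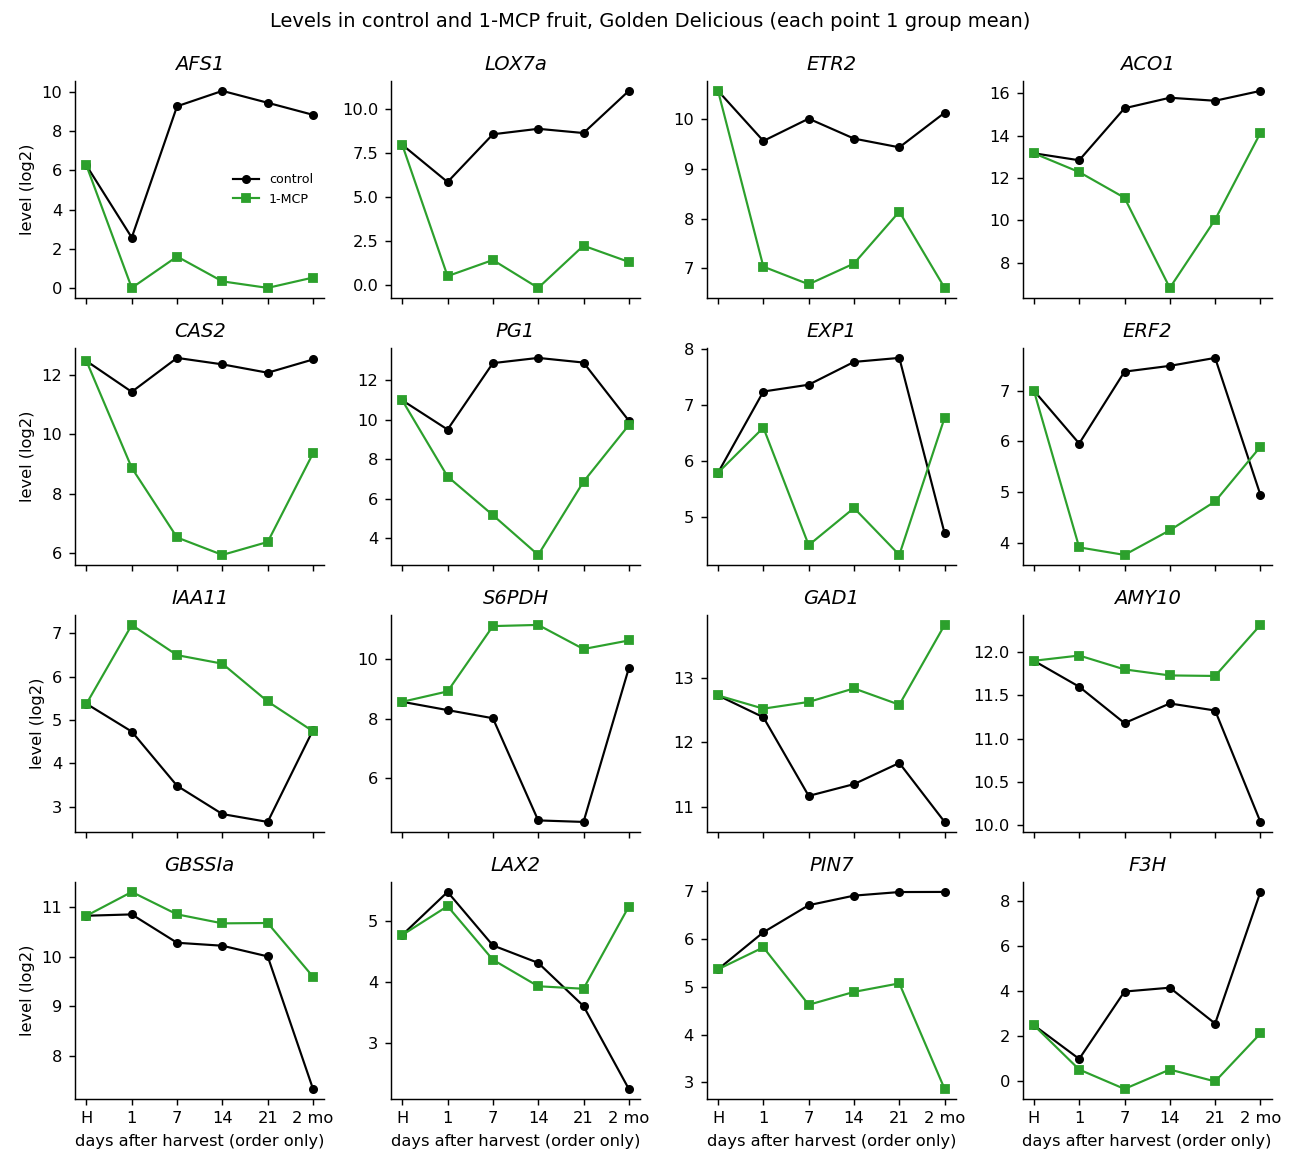
Levels (log2, each point 1 group mean, y axes differ) of 16 named genes in control (black circles) and 1-MCP fruit (green squares) at harvest (H), day 1, 7, 14 and 21 and 2 months (order only). AFS1 and LOX7a stay far below control, PG1 and IAA11 meet it, and EXP1 and ERF2 cross it. AMY10, GBSSIa and LAX2 lie farther from it at 2 months than on average over days 7 to 21.

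AFS1 and LOX7a, which serve aroma formation, were still far lower in treated fruit. AFS1, the alpha-farnesene synthase of apple, was at 6.25 at harvest, and at 2.57, 9.28, 10.06, 9.46 and 8.84 in control fruit. In treated fruit it was at 0.00, 1.60, 0.33, 0.00 and 0.53, near the floor of the scale at every sampling. The difference was -8.31 at 2 months (SE 0.74, limma adjusted p = 0.00333) and -8.96 at days 7 to 21. LOX7a, a lipoxygenase, the kind of enzyme that feeds fatty acids into ester volatiles, was at 11.02 in control and 1.33 in treated fruit, a difference of -9.68 (SE 0.95, limma adjusted p = 0.0065; 0.0708 without day 7). Among 4 lipoxygenases, 2 were at least 2-fold lower and none higher, the other being LOX1c, which differed late by -4.03 as control fruit were at 1.00 at day 21 and 4.36 at 2 months (limma adjusted p = 0.0235; 0.0648 without day 14). With 4 added to the linear values the 2-month differences were -6.41 for AFS1, -8.31 for LOX7a and -2.22 for LOX1c. The share of all members at least 2-fold lower was 11.7%.

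The other isoprenoid and pigment genes differed in both directions. FPPS, which makes the farnesyl diphosphate that AFS1 uses, was lower by 1.54 (SE 0.36, limma adjusted p = 0.0289; 0.0789 without day 14), with no difference past 0.5 early. OSC1, an oxidosqualene cyclase of triterpene synthesis, was higher by 1.31 (SE 0.34, adjusted p = 0.0463; 0.0773 without day 21, 0.0620 when centred and 0.109 with neither limma option). PSY2, the phytoene synthase at the head of carotenoid synthesis, was at 11.19 and 9.53, a difference of -1.66 that missed the threshold (limma adjusted p = 0.0638). F3H, a flavanone 3-hydroxylase record of flavonoid synthesis, was at 8.42 in control and 2.13 in treated fruit after 2.57 and 0.00 at day 21, a difference of -6.29 (SE 0.74, adjusted p = 0.00427). The treated F3H level of 2.13 lies low on the scale, and with 4 added to the linear values the difference was -5.37. A separate record, MdF3H, differed by 0.72 and did not pass, and reads of near-identical copies of any of these genes may be split between records.

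Both genes named CAS were still lower at 2 months, CAS2 by less than before. CAS2 was at 12.06 in control and 6.38 in treated fruit at day 21, and at 12.51 and 9.36 at 2 months. Its difference narrowed from -6.04 (SE 0.14) to -3.15 (SE 0.24), and the change of 2.88 passed (limma adjusted p = 0.00657). CAS1 stayed at -1.31 (SE 0.20) after -1.46. MALD1, a PR-10 protein and the main birch-pollen-related apple allergen, was at 13.98 and 8.98 at day 21 and at 12.60 and 11.33 at 2 months. Its difference was -6.45 over days 7 to 21 and -1.27 at 2 months (SE 1.39, limma adjusted p = 0.557), and the change missed the threshold (adjusted p = 0.137).

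Of the auxin response genes that had been higher under 1-MCP, IAA11 and ARF2 had caught up. All 4 Aux/IAA members, of 8 such genes named in the tables, passed as higher in treated fruit at days 7 to 21, with a median difference of 2.09, and none passed at 2 months, when the median was 0.60. IAA11 was at 5.37 at harvest, at 4.73, 3.49, 2.84, 2.66 and 4.77 in control fruit, and at 7.19, 6.49, 6.30, 5.43 and 4.74 in treated fruit. Its difference of 3.08 at days 7 to 21 (SE 0.18) was -0.03 at 2 months (SE 0.31), and the change passed (limma adjusted p = 0.00833). IAA4 went from 3.11 to 0.52, a change that also passed (adjusted p = 0.0108). IAA12, at 1.23, was the only Aux/IAA member still past 2-fold (adjusted p = 0.0734). At days 7 to 21, 23.9% of all tested entries passed as higher, and at 2 months 15.2% did.

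Among 3 auxin response factors, ARF2 had caught up and ARF1 and ARF3 had not. ARF2 differed by 1.78 at days 7 to 21 and -0.25 at 2 months (SE 0.23), with the change at adjusted p = 0.0107 by limma. ARF3 was at 4.72 in control and 6.83 in treated fruit, a difference of 2.10 (SE 0.42, limma adjusted p = 0.0226; 0.0707 without day 14). ARF1 was higher by 1.22 (SE 0.21, adjusted p = 0.0121; 0.0519 with neither limma option). The ARF3 call was lost with neither option as well (0.0685).

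The auxin carriers differed at 2 months in opposite directions. PIN7, an efflux carrier, was at 6.98 in control fruit at day 21 and again at 2 months, and at 5.07 and 2.86 in treated fruit. Its difference widened from -2.001 to -4.12 (SE 0.19, limma adjusted p = 0.000843; change adjusted p = 0.00729). LAX2, an influx carrier, showed no early difference, with 3.60 in control and 3.89 in treated fruit at day 21, and then stood at 2.24 and 5.24. The late difference of 3.00 (SE 0.34) had limma adjusted p = 0.004, and its change adjusted p = 0.0103.

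Most starch genes and 2 of 3 GABA genes were higher in treated fruit at 2 months. Of 4 starch genes, 3 were at least 2-fold higher and passed, against 11.0% of members past that fold and 15.2% of tested entries passing as higher, with a list median of 2.16 at 2 months and 0.51 at days 7 to 21. At days 7 to 21, 3 of the 4 had already passed as higher, against 23.9% of tested entries. AMY10, an alpha-amylase, was at 11.90 at harvest, and at 2 months at 10.03 in control and 12.32 in treated fruit, a difference of 2.29 (SE 0.15) after 0.45 early. GBSSIa, a granule-bound starch synthase that makes amylose, was at 7.33 and 9.60, below its harvest level of 10.83 in both groups, with a difference of 2.27 (SE 0.13) after 0.57. Both changes passed (limma adjusted p = 0.00587 and 0.0053). GBSSIb was higher by 2.05 (SE 0.17), and MEX, a maltose exporter record, by 0.52, which missed the threshold.

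GAD1, the glutamate decarboxylase that makes GABA, was at 12.72 at harvest, 10.77 in control and 13.81 in treated fruit at 2 months. The treated level at 2 months was the highest of the 11 groups and the control level the lowest. Its difference widened from 1.28 to 3.04 (SE 0.23, limma adjusted p = 0.00155; change adjusted p = 0.0149). GABA-T2, a GABA transaminase, stayed higher by 1.77 (SE 0.36, adjusted p = 0.0244; 0.0717 without day 14 and 0.0716 with neither limma option). GAD2 differed by 1.91 at days 7 to 21 and by -0.60 at 2 months, where it did not pass, and its change did not pass either (adjusted p = 0.167).

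Sorbitol, the sugar alcohol that apple leaves export to fruit, had no common course. S6PDH, which makes sorbitol 6-phosphate, was at 4.50 in control and 10.35 in treated fruit at day 21 and at 9.70 and 10.64 at 2 months. Its difference was 5.19 at days 7 to 21 and 0.94 at 2 months (SE 1.40), and the change did not pass (limma adjusted p = 0.188). The transporter MdSOT3 stayed higher, at 3.04 in control and 6.14 in treated fruit, a difference of 3.09 (SE 0.33). MdSOT4 differed late and lower, by -1.48 (SE 0.19). Of 6 sucrose and hexose genes, 2 passed as lower, with hexokinase at -1.35 and the fructokinase FK at -0.95. UGE, a UDP-glucose epimerase, passed as higher at 1.004 (limma adjusted p = 0.0153; 0.0691 with neither option). Shares of all tested entries passing were 11.2% as lower and 15.2% as higher.

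Homeobox and CONSTANS-like regulators were higher in treated fruit in most cases. Of 11 members, 6 were at least 2-fold higher and none at least 2-fold lower, 8 passed as higher and none as lower, and the median was 1.02. Over all members 11.0% were at least 2-fold higher and the median was 0.10, and over all tested entries 15.2% passed as higher. HD21 was at 7.39 in control and 10.33 in treated fruit, close to its harvest level of 10.40, a difference of 2.94 (SE 0.23). Col1 was higher by 2.87 (SE 0.25) and HD16 differed late, by 1.68 (SE 0.16). HD1 had caught up, with a difference of -1.91 at days 7 to 21 and 0.30 at 2 months, and its change passed (limma adjusted p = 0.00738). Of the higher calls, that of HD13 was lost without day 14 (adjusted p = 0.0733) and with neither limma option (0.0689).

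In the larger transcription factor families, 17 of 43 members passed (39.5%), 12 as higher and 5 as lower. Over all members 9848 of 32691 passed, and over all tested entries 26.3% did. Of 11 NAC genes, 4 passed as higher and NAC3 passed as lower, at -2.14 (SE 0.16). NAC10 differed by 3.90, with control fruit at 3.66 and treated fruit at 7.56, but it missed the threshold (limma adjusted p = 0.106). Of 16 MYB genes, 3 passed in each direction, MYBR18 at 2.71 (SE 0.26) among them, while the calls of MYBR15, MYBR1 and MYB5 were lost without day 14 (limma adjusted p = 0.0748, 0.0650 and 0.0577), and that of MYBR1 with neither limma option as well (0.0565). Of 8 WRKY genes 2 passed as higher, among them WRKY1 at 1.74 (SE 0.17). Of 8 MADS genes, 3 passed as higher and MADS7 passed as lower, at -1.76 (SE 0.23). MADS2 was higher by 2.44 (SE 0.26), and DAM1, whose name stands for dormancy-associated MADS box, by 1.82 (SE 0.23).

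Single members of other groups followed different courses. GATA7, a GATA-type zinc finger factor, turned from 1.28 higher to 2.03 lower (SE 0.25), with control fruit at 5.63 at day 21 and 8.79 at 2 months and treated fruit at 7.12 and 6.75. CYCD3, a D-type cyclin of cell division, stayed higher by 3.92 (SE 0.73, limma adjusted p = 0.0176; 0.0585 with neither limma option), at 1.53 in control and 5.45 in treated fruit, and CKS1, a partner of cyclin-dependent kinases, was lower by 1.42 (SE 0.15). The dehydrin record, of a family that protects cells during drying and cold, was at 9.36 in control and 7.14 in treated fruit at day 21 and at 13.52 and 14.12 at 2 months. Its difference of -3.21 at days 7 to 21 was 0.61 at 2 months (SE 0.70), and none of the 4 heat shock and dehydrin members passed at 2 months. The phloem protein records pp2-1 and pp2-3 differed by 0.09 and 0.12 and did not pass. CAMTA3 was listed at the floor in treated fruit and at 4.19 in control fruit at 2 months, and DOF7 differed by -5.001, calls that had adjusted p = 0.0754 and 0.0543 by limma without day 14. The DOF7 call was also lost with neither limma option (0.0711). With 4 added to the linear values their differences were -2.30 and -2.85.

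Among the remaining lists, 2 of 4 gibberellin and cytokinin genes passed as higher in treated fruit. These were the gibberellin receptor GID1b at 0.82 and the cytokinin receptor record CHK3b at 0.68. For these short lists, the shares of all tested entries that passed were 15.2% as higher and 26.3% in either direction. Of 3 polyamine genes, 2 passed as higher, SAMDC, which makes decarboxylated S-adenosylmethionine, at 0.75 and the spermidine synthase MdSPDS2a at 0.89. Of 7 calcium and stress kinases, CIPK01 alone passed, at 2.88 (SE 0.37; 1.87 with 4 added to the linear values), and neither of the autophagy genes ATG3 and ATG8g did. The named genes MdTCP2B, BZIP8 and ANR2a had also caught up by the size of the difference, which was -0.24, 0.23 and -0.12 at 2 months. They are not among the genes flagged at the end for a change that passed. ALF5 differed late by -1.98 and missed the threshold (limma adjusted p = 0.118).

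The 2 lowest and 2 highest differences among entries without a gene name were as follows. XM_008382100 was at -0.14 in control fruit at day 21 and 11.31 at 2 months, against the floor of -1 and 0.53 in treated fruit, a difference of -10.78 (SE 0.97, limma adjusted p = 0.00231). XM_008386913 differed by -10.48. At the other end, XM_008339595 was higher by 6.57 and XM_008384447 by 6.56 in treated fruit.

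The other cultivars allow the 2-month differences to be read in fruit that took no part in defining the classes. Of members that were still lower in Golden Delicious and reached the level threshold in Granny Smith, 791 of 1094 (72.3%) were also at least 2-fold lower there. Of those still higher, 724 of 1197 (60.5%) were at least 2-fold higher. Over all 30141 entries that were members in both cultivars, 6.36% were lower and 6.32% higher by that much in Granny Smith. Of those that had been lower and caught up, 91 of 393 (23.2%) were at least 2-fold lower in Granny Smith, and of those that had been higher and caught up, 120 of 486 (24.7%) were at least 2-fold higher. Late differences were shared by 170 of 730 (23.3%) lower and 144 of 869 (16.6%) higher members. In Fuji, whose table covers 27230 entries and whose treated 2-month values match a mean of 2 libraries, 456 of 562 still-lower members (81.1%) and 393 of 589 still-higher members (66.7%) had the same difference, against 6.84% lower and 6.54% higher over 14499 entries.

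Whether a named gene differed in its response from Granny Smith at 2 months was tested with limma on the difference between the cultivars' treatment effects, a test chosen after the values were seen. It passed for 1350 of 40070 entries (3.37%). PG1 was at 10.81 in control and 4.34 in treated Granny Smith fruit, a difference of -6.47, and the gap of 6.25 to Golden Delicious had adjusted p = 0.0518. LAX2, at -0.07 in Granny Smith, differed between the cultivars by 3.07 (adjusted p = 0.027). GAD1, at 0.40, differed by 2.65 (adjusted p = 0.018), and F3H, at -0.47, by -5.82 (adjusted p = 0.0486). GATA7 was 1.03 higher in treated Granny Smith fruit, opposite to Golden Delicious (adjusted p = 0.0126). EXP1 and ERF2 were at -0.94 and -1.46 in Granny Smith, but their gaps of 3.01 and 2.41 to Golden Delicious did not pass (adjusted p = 0.284 and 0.133). AFS1 and ETR2 were at -8.59 and -3.65 in Granny Smith and at -8.66 and -3.54 in Fuji, and the gaps of 0.28 and 0.13 between Golden Delicious and Granny Smith did not pass. ACO1 differed by -1.29 in Granny Smith and -4.24 in Fuji.

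**Figure D4:**
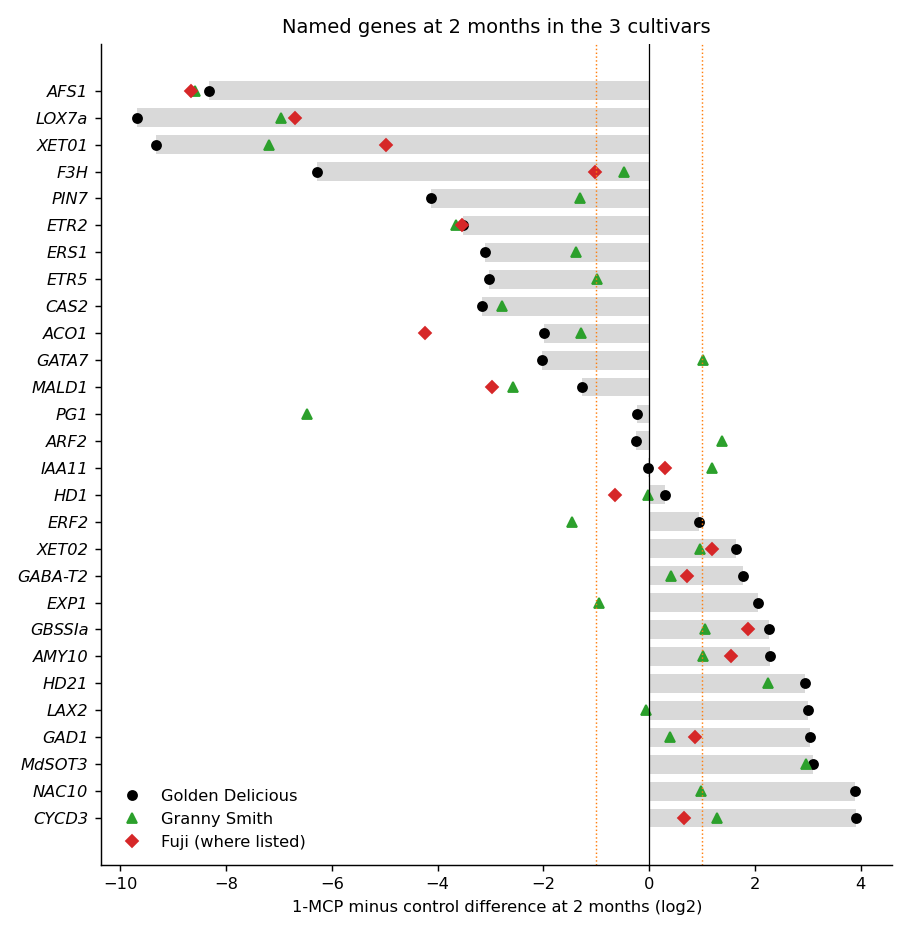
Differences between 1-MCP and control fruit at 2 months (log2) of 28 named genes in Golden Delicious (black circles, grey bars from 0), Granny Smith (green triangles) and Fuji (red diamonds, where listed), with dotted lines at 2-fold. The 3 cultivars lie together for AFS1 and ETR2, while PG1 is at -0.22 in Golden Delicious and -6.47 in Granny Smith.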

How the data were processed

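The authors' deposited values are on a log2 scale, 1 column per group, and are called FPKM in their table. Taken as means over 3 libraries, with 0 entered as 0.5 (a floor of -1), all Golden Delicious values under 1.5 come out whole (relative tolerance 0.0003). Reads were 100 bp from non-directional libraries, per the labels' protocols, so overlapping and antisense genes cannot be told apart. STAR 2.5.1a and HTSeq were used, per the submitters' processing notes, and the genome build is not given in the sources used here. Golden Delicious column medians nearly match (4.59 to 4.60). The share of entries at the floor does not, at 12.9% in control fruit at 2 months and 18.0% in control fruit at day 21. Depth is unknown, so no counting interval was computed.

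Entries that reached log2 of 2 in 3 or more Golden Delicious columns, and all members, were fitted in R 4.3.3 by limma 3.58.1, with its trend and robust settings, on the 1-MCP minus control differences, with 1 coefficient for days 7, 14 and 21, 1 for 2 months, and their contrast (two-sided, threshold 0.05). P-values thus weigh effects against the spread between days, not between replicate fruit. The fit was also run on simulated data. There the 2-month value was given the spread of the days, so that run cannot check the assumption that it varies as they do.

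Names came from RefSeq (assembly GDT2T_hap1), with 22330 entries (40.1%) matched, mostly without regard to version, and 439 named. The entry with the highest Golden Delicious level stood for a gene. The members and the gene lists were chosen with earlier results of these data known. Named genes are list members past 2-fold or with an early effect, the 8 highest and 8 lowest differences, up to 8 caught-up genes per direction, and up to 5 turned and 5 late genes per direction. Other list members are named to complete a count. Alternatives were another level filter, an added constant of 4, centring, other folds, days left out and other limma options.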

Additional observations from a re-analysis of the deposited data

Results flagged for a closer look

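For 30 named genes the treatment difference at 2 months departed from that of days 7 to 21 by a limma test of the change (adjusted p under 0.05), which flags them here. The values are changes on the log2 scale, 2 months minus days 7 to 21. The change was positive for EXP1 (5.06), ERF2 (4.17), LAX2 (3.12), CAS2 (2.88), HD1 (2.21), AMY10 (1.84), GAD1 (1.77), MYBR18 (1.73), GBSSIa (1.70), omt5 (1.61), HD16 (1.43), MADS2 (1.28), WRKY1 (1.15) and NPR3 (1.08). It was negative for MdACS-5B (-4.04), GATA7 (-3.31), IAA11 (-3.11), MYBR17 (-2.996), IAA4 (-2.59), XET02 (-2.50), PIN7 (-2.12), ARF2 (-2.03), MADS7 (-1.74), HD14 (-1.42), NAC3 (-1.38), AP2D51 (-1.33), MdSOT4 (-1.19), hexokinase (-1.15), AP2D11 (-1.03) and CKS1 (-1.03). Over all tested entries 5408 of 40070 (13.5%) passed the same test. Without day 14 limma passed 0 of them, the smallest adjusted p being 0.0546, while 8378 entries had an unadjusted p under 0.05. With neither trend nor robust option 822 entries passed.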

How the results depend on the processing

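No paired analysis was possible because the deposited columns are group means, and for the same reason no single replicate could be left out. Counts of members at least 2-fold higher and lower at 2 months, 3585 and 3836, became 6801 and 6048 with no level filter, 2229 and 2134 where both columns had to reach the level (added after seeing the data), 1060 and 1773 at 4-fold, and 7278 and 6130 at 1.5-fold. Caught-up members rose from 947 to 1872 when a difference under 1 counted. Members that turned round fell from 283 to 186 with 4 added to the linear values and to 165 without day 14. With 1 entry per gene record (added after seeing the data), 1170 members still differed, 435 had caught up, 133 had turned round and 842 differed late, since fewer entries are counted. Limma calls over days 7 to 21 fell from 17967 to 6056 without day 14 and 7511 with no filter. Calls at 2 months fell from 10543 to 3621 without day 14, 5370 with neither trend nor robust option and 4989 with no filter. Calls of the change, 5408, became 8680 without day 7, 0 without day 14, 822 with neither option and 1457 with no filter. The cause was not tested. All other class and limma counts stayed within 1.5 times. Of 89 named genes, 57 passed at 2 months, and 45 of the 57 calls were lost with no filter, 16 without day 14 and 13 with neither option. The entry of ARF2 next in level gave 0.20 where the entry used gave -0.25, neither past the threshold. With group means and unknown depth, the 2-month differences have no replicate check of their own.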
